A study of Mus musculus with 4 samples.

Results

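The major urinary proteins are a family of small secreted proteins encoded by a cluster of near-identical Mup genes in the mouse. The 10 genes described here are Mup1, Mup6, Mup7, Mup9, Mup10, Mup11, Mup12, Mup14, Mup15 and Mup16, chosen by name from the 722 genes of a deposited table that compares fasted livers. All 10 were found in it, and 0 of them are in the second deposited table of 284 refed-state genes, out of 943 genes in both tables together. RNA was sequenced from mouse liver in 4 libraries, 1 per group. The control livers were wild type and carry shNC in their label (WT_shNC), once fasted and once refed. The other 2, called targeted here, have the genotype L_Cyb5b_shCyb5a, written Liver-Cyb5b_shCyb5a in the design text, again once fasted and once refed. Cyb5a and Cyb5b encode cytochromes b5, small electron carriers, and the series title places the study in sterol synthesis. What limits the groups as models (age, sex and number of mice behind a library, any promoter or vector used, the lengths of fasting and refeeding) was not given in the sources used here. With 1 library per group there is no replicate check on any value, and no difference between groups was tested.

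Major urinary proteins are lipocalins, barrel-shaped carriers of small hydrophobic molecules. Hepatocytes make them and release them into blood, and the kidney passes them into urine, where they bind and slowly release volatile pheromones. In mouse liver their genes are among the most abundantly transcribed, are expressed more in males than in females, and depend on the pulses of growth hormone that act through the transcription factor STAT5B. The copies arose by recent duplication, so a short sequencing read from one gene often matches several others.

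The likeness of the copies bears on every value of a single gene, so it is shown first. RefSeq (GRCm38.p6) annotates 22 numbered Mup genes and 24 Mup pseudogenes, all of the numbered genes on chromosome 4, and all 10 members matched an entry by gene name. In the GENCODE M21 transcripts, 8 members share a coding region of 540 bases, without the stop codon, and only 13 of those positions vary among the 8. The first 60 coding bases hold 5 of these varying positions. They are printed here for 6 members, 5′ to 3′, with a capital wherever a gene departs from the most common base.
Mup9: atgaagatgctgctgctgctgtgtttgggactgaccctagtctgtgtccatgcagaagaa
Mup10: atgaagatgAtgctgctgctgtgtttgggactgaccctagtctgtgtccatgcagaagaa
Mup1: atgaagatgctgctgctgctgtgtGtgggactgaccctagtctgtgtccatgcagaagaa
Mup12: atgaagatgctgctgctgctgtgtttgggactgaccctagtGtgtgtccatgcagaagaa
Mup7: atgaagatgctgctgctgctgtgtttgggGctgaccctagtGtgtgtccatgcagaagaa
Mup15: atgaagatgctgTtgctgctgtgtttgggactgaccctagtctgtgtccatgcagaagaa
Mup9 carries the most common base at each position, and Mup10 departs from it once, at a base where the other 7 genes of this length are alike. Mup14 has the same 60 bases as Mup7, and Mup16 the same as Mup15, although the members of each pair differ elsewhere.

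Over whole coding regions, the 36 pairs among the 9 members other than Mup6 differed at 2 to 9 aligned positions, an identity of 98.3% to 99.6%. Mup10 and Mup9 differed at 2 positions, as did Mup9 and Mup16, and Mup1 and Mup12. Mup6 was the outlying copy, with 53 to 58 differences from the other members and an identity of 89.3% to 90.2%. Of the windows of 100 bases in its transcript, 100% occur in no transcript of another gene. For the other 9 members this share was between 2.66% for Mup15 and 22.5% for Mup12, and stood at 12.9% for Mup7 and 14.6% for Mup10. The windows that are shared occur in other numbered Mup genes and 1 Mup pseudogene, and in 0 genes outside the family. The windows describe the annotation and not the reads, whose length was not given in the sources used here.

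**Figure D1:**
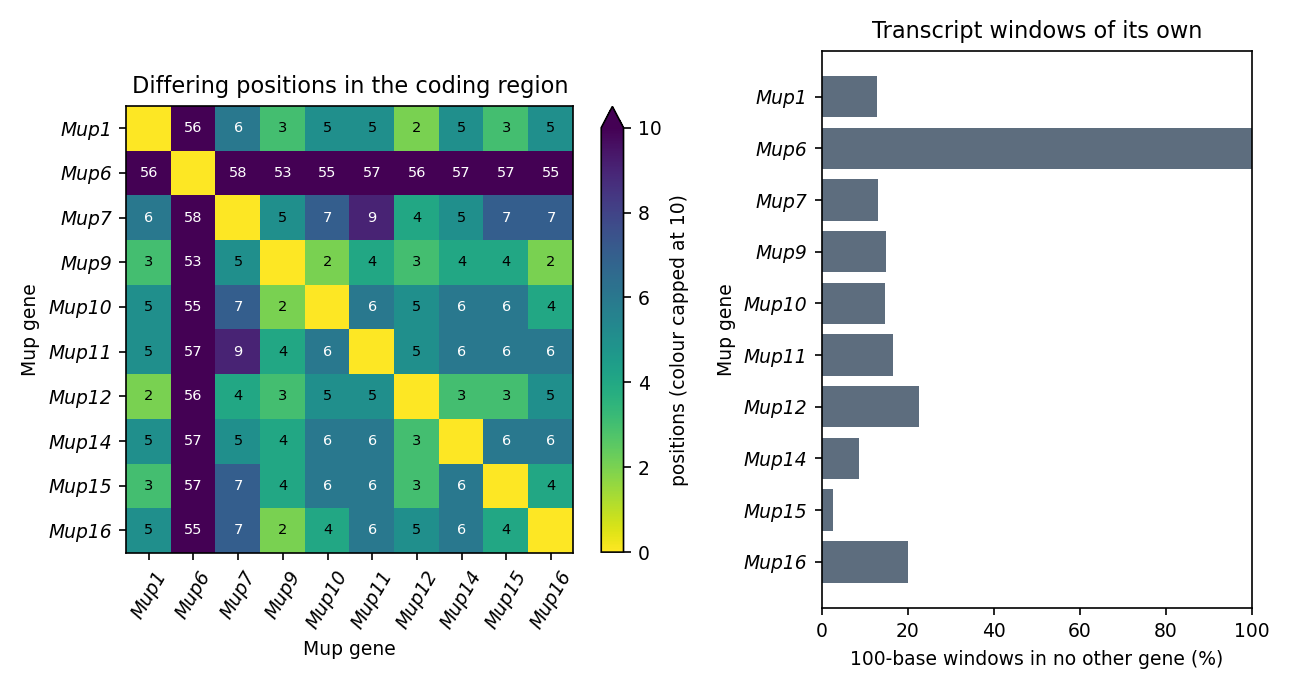
Left, the number of differing aligned positions between the coding regions of each pair of members, with the colour capped at 10. Right, the share of 100-base windows of each member's transcript (x axis, percent) that occur in no transcript of another gene. Mup6 differs from every other member at 53 or more positions and has 100% of its windows to itself, whereas the others have at most 22.5%.

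The RefSeq table holds a promoter of 300 bases, 250 before and 50 after the annotated start, for 7 of the 10 members. These 3 are printed because Mup15 served as the reference of the alignment, Mup10 is one of the 2 members whose levels followed a different pattern, and Mup6 is the outlying copy. Each runs 5′ to 3′ on its own strand, and capitals in Mup10 and Mup6 mark bases that differ from the Mup15 promoter within the aligned stretch. A base present in Mup15 and missing from the other promoter leaves no mark. The Mup15 promoter is not a consensus, and the first capital of Mup10 marks a base at which Mup15 alone departs from the other 6.
Mup15 promoter (chr4:61439655-61439954, minus strand): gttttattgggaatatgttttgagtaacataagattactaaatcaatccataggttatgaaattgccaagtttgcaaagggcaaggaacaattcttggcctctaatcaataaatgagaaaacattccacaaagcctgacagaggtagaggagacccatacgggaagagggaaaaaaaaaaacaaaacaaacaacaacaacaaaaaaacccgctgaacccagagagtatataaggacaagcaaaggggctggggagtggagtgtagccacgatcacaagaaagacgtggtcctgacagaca
Mup10 promoter (chr4:60582106-60582405, minus strand): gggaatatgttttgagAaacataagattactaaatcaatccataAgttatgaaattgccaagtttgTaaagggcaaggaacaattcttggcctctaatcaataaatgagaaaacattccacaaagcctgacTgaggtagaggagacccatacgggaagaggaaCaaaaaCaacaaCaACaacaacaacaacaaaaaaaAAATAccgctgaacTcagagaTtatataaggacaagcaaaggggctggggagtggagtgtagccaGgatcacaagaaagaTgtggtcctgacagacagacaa
Mup6 promoter (chr4:60003231-60003530, plus strand): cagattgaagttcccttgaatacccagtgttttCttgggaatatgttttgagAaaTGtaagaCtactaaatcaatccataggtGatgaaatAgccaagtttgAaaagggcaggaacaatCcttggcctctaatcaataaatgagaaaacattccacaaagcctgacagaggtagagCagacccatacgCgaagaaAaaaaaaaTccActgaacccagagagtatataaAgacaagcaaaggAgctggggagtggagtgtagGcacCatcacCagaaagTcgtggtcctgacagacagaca
Over 296 aligned positions the Mup10 and Mup15 promoters differed at 19, gaps included, an identity of 93.6%. The Mup9 promoter differed from that of Mup15 at 7 of 294 positions. The Mup6 promoter matched that of Mup15 at 82.7% of 300 aligned positions. Motifs were counted on both strands as a description of these letters only. The exact letters TATAAA, the usual core of a promoter's TATA box, were present in the Mup6 promoter and not in the other 6, against 13.6% of all 32851 promoters in the table. At the matching place Mup9, Mup10, Mup11, Mup14 and Mup15 read TATAAG, and the Mup7 window ends before it. The count therefore does not show that Mup6 alone has a TATA box. The STAT5 motif TTCNNNGAA, found in 8.30% of all promoters, was in none of the 7 windows. The same held for the C/EBP motifs TTGCNNAA (10.8% of all promoters) and TTGCGCAA (0.183%), of which the second is a special case of the first, and for the glucocorticoid receptor motif TGTTCT (19.0%). The E-box CANNTG, found in 72.3% of all promoters, occurred 2 times each in the Mup7 and Mup14 windows. The annotated starts are offset between copies, so the windows do not cover the same aligned bases.

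The authors' read numbers could be recovered from their log2 ratios. For 9 of the 10 members the read numbers have 2 decimals, as when reads that match several genes are divided among them, and Mup6 alone has whole reads. The source of the decimals was not tested, and the share of listed genes outside the family that have them was not counted. Mup9 rests on 358.79 reads in the control fasted and 776.64 in the targeted fasted library, and Mup6 on 79 and 39. Mup7 rests on 193547.61 and 41197.23 reads, the most in the control fasted library. Estimated depth was about 13300000 to 13600000 reads per library. Counting error is therefore small for all members except Mup6 and Mup9. The division of reads between copies is a further error that no interval here covers. The 95% intervals in parentheses below cover counting error only, and single reads need not come from separate RNA molecules.

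Levels are given in TPM, the deposited measure of transcripts scaled to one fixed library total, a scale that accounts for transcript length and so allows comparison between genes. Mup7 had the highest level in 3 of the 4 libraries, at 22544 TPM in the control fasted, 5444 in the targeted fasted, 52657 in the control refed and 30738 in the targeted refed library. Its targeted fasted level was the lowest of the 4 and its control refed level the highest. Mup14 stood at 10456 TPM in the control fasted, 5075 in the targeted fasted, 23641 in the control refed and 19089 in the targeted refed library. Mup11 stood at 6678, 2432, 18038 and 11886 TPM, and Mup15 at 5104, 1795, 18489 and 12023 TPM, in the same order of libraries. These 4 genes shared 1 order of libraries, with the control refed level highest, then targeted refed, control fasted and targeted fasted.

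The less abundant members spanned a wide range below them. In the order control fasted, targeted fasted, control refed, targeted refed, Mup1 stood at 1755, 424, 3478 and 2291 TPM. Mup12 stood at 1527, 357, 2085 and 1581 TPM, and Mup16 at 1004, 482, 2973 and 2077 TPM. These 3 genes followed the same order of libraries as Mup7. Mup6, the copy with sequence of its own, did too, at 13.5, 8.48, 39.3 and 23.6 TPM. The 2 exceptions were Mup10 and Mup9, whose values are given with their comparisons below. Within a library the order of members was similar throughout, with Mup9 and Mup6 the lowest in all 4. Mup11 and Mup15 lay within a few percent of each other in both refed libraries, and without replicates the order of such neighbours has no error to be judged by.

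**Figure D2:**
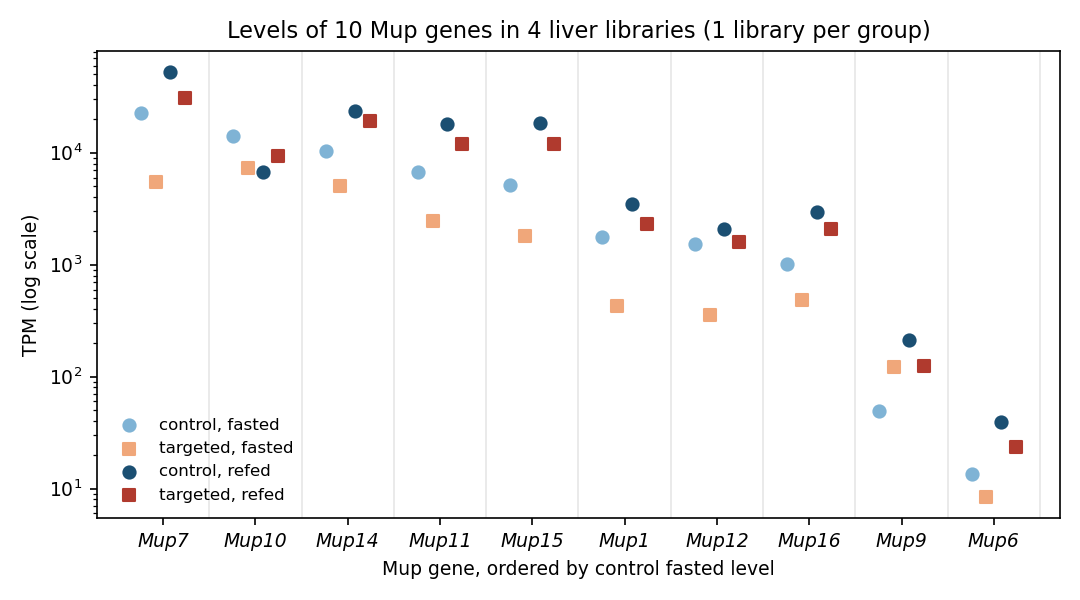
TPM (log y axis) of each member (x axis, ordered by control fasted level) in the 4 libraries, 1 point per library, with circles for control, squares for targeted, pale colours for fasted and dark colours for refed. For 8 of the 10 members the pale square is the lowest and the dark circle the highest point, and Mup10 and Mup9 depart from this.

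Summed over the 10 members, the family made up 6.31% of all TPM in the control fasted library and 2.35% in the targeted fasted library. After refeeding the shares were 12.8% in the control and 8.92% in the targeted library. The family is therefore a large part of what was sequenced, and also of the fasted table. Its share of the listed TPM was lowest in the targeted fasted library, at 48.4%, and highest in the control refed library, at 82.1%. Of the 10 most abundant genes of that table, 7 were members in the control fasted, 5 in the targeted fasted and 8 in each refed library. The highest other gene in 3 of the libraries was Serpina1e, a secreted protease inhibitor of the alpha-1-antitrypsin group, and in the targeted fasted library it was the cytochrome P450 gene Cyp3a11.

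The composition of the family also differed between libraries. Mup7 supplied 35.7% of the family TPM in the control fasted, 23.2% in the targeted fasted, 41.0% in the control refed and 34.5% in the targeted refed library. Mup10 supplied 22.2%, 31.2%, 5.29% and 10.5% in the same order, and in the targeted fasted library it took first place from Mup7. Mup14 held 16.6% to 21.6% of the family in all 4 libraries. Mup9 never exceeded 0.519% of the family TPM, its share in the targeted fasted library.

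**Figure D3:**
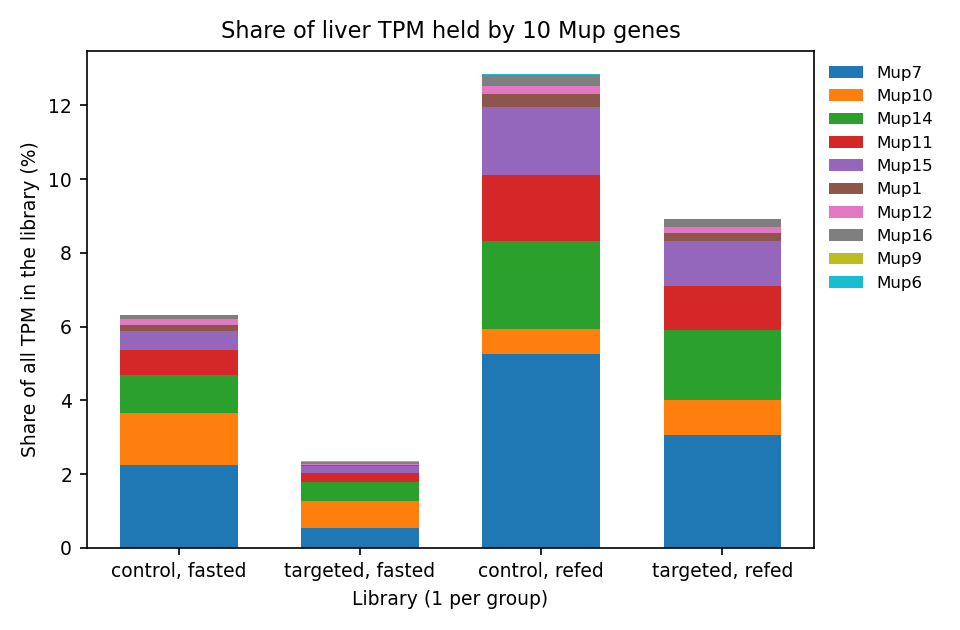
Share of all TPM in the library (y axis, percent) held by the 10 members, stacked by gene, in the 4 libraries (x axis, 1 library per group). The bars reach 6.31%, 2.35%, 12.8% and 8.92%, and the Mup10 segment is wider in the fasted control than in the refed control library.

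In the fasted state the family sum was 2.69-fold lower in the targeted library, at 23453 TPM against 63117 TPM in the control. This ratio is the one that placed the genes in the table, which lists only genes with an absolute log2 ratio of at least 1 on the authors' scale, so it is a description. By TPM, 7 of the 10 members were at least 2-fold lower, where 45.6% of the 722 listed genes were, and 1 was at least 2-fold higher, where 29.6% were. The members are given here in order of their ratio, and without replicates the gaps between them have no error to be judged by. Mup12, Mup1 and Mup7 had the lowest ratios, at log2 values of -2.10, -2.05 and -2.05. Mup15 and Mup11 followed at -1.51 and -1.46, and Mup16, Mup14 and Mup10 lay at -1.06, -1.04 and -0.94. Mup6 was 1.59-fold lower (1.07 to 2.40) on its 79 and 39 reads. The authors' deposited table gives Mup6 a log2 ratio of -1.02, the nearest of any member to the threshold of listing. Mup9 alone was higher in the targeted library, by 2.47-fold (2.18 to 2.81).

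The fasted values depend somewhat on the scale. TPM was 1.3 times FPKM, the deposited measure of fragments per kilobase, in the control fasted library and 1.5 times in the targeted fasted library, against 1.23 and 1.25 times in the control and targeted refed libraries. By FPKM the family sum was 3.10-fold lower in the targeted fasted library, and 8 members were at least 2-fold lower in place of 7. Fewer hepatocytes and less Mup RNA per hepatocyte cannot be told apart in RNA from whole liver.

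The refed ratio did not decide which genes are in the fasted table, although the members were chosen with earlier results of these data known. The family sum was 1.44-fold lower in the targeted refed library, at 89217 TPM against 128401 TPM in the control. Of the 10 members, 9 were lower by any amount, where 23.7% of the 722 genes of the fasted table were lower in the same comparison, and 1 was higher, where 75.5% were. Against this, 0 of 10 members were at least 2-fold lower, where 2.91% of the listed genes were, and 0 were at least 2-fold higher, where 13% were. These 2 counts largely restate that 0 members are in the refed table, whose smallest absolute log2 ratio is 1 on the authors' scale. The members' median log2 ratio was -0.60, beside 0.37 over all listed genes. Mup7 was 1.71-fold lower (1.71 to 1.72), Mup9 1.68-fold lower (1.55 to 1.82) and Mup6 1.67-fold lower (1.34 to 2.08). The smallest differences among the lower members were those of Mup12, 1.32-fold (1.29 to 1.35), and Mup14, 1.24-fold (1.23 to 1.25). Mup10 was the 1 member higher in the targeted refed library, 1.38-fold (1.37 to 1.40). Reads of the targeted refed library were estimated from FPKM, so these intervals are approximate.

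The ratios of the 2 feeding states, side by side, were smaller in size after refeeding for most members. The members are listed because their fasted ratio passed a threshold, so a smaller refed ratio can follow from this choice alone. Of all listed genes, 45.6% were at least 2-fold lower in the fasted pair and 2.91% in the refed pair. At least 2-fold higher were 29.6% and 13%. Mup12 had a log2 ratio of -2.10 fasted and -0.40 refed, and Mup1 of -2.05 and -0.60. By TPM Mup6 was the exception among the lower members, at -0.67 and -0.74. By FPKM its values were -0.88 fasted and -0.76 refed, so the exception depends on the scale. Its fasted ratio rests on 79 and 39 reads. These comparisons share no library, but each rests on 1 pair, and the difference between them was not tested.

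Refeeding was next compared with fasting within each genotype. In the control libraries the family sum was 2.03-fold higher after refeeding, and 7 of 10 members were at least 2-fold higher, where 16% of 721 listed genes were. By any amount 9 were higher, where 26.2% were, and 1 was lower, where 73.8% were. In the targeted libraries the sum was 3.80-fold higher, and 8 of 10 members were at least 2-fold higher, where 18.6% of 722 listed genes were. All 10 were higher by some amount, where 59.8% were. None was lower, where 39.6% were lower by any amount and 18% by at least 2-fold. The median log2 ratio of the members was 1.33 in the control and 2.13 in the targeted pair, beside -0.89 and 0.23 over all listed genes. The fasted genotype comparison, which fixed which genes are listed, shares a fasted library with each of these 2 comparisons.

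Single members differed in how far the refed level exceeded the fasted one. In the control pair Mup15 was 3.62-fold higher (3.58 to 3.66), Mup6 2.91-fold (2.24 to 3.81), Mup7 2.34-fold (2.32 to 2.35) and Mup12 1.37-fold (1.33 to 1.40). In the targeted pair the values were 6.70-fold (6.57 to 6.83) for Mup15, 5.65-fold (5.59 to 5.71) for Mup7 and 4.43-fold (4.23 to 4.63) for Mup12. By TPM Mup6, at 2.78-fold (1.93 to 4.08), had about the same ratio in both genotypes. By FPKM it was 3.09-fold higher in the control and 3.34-fold higher in the targeted pair, so the order depends on the scale. Of the others, 8, Mup10 included, had a higher ratio in the targeted pair and a lower targeted than control fasted level.

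**Figure D4:**
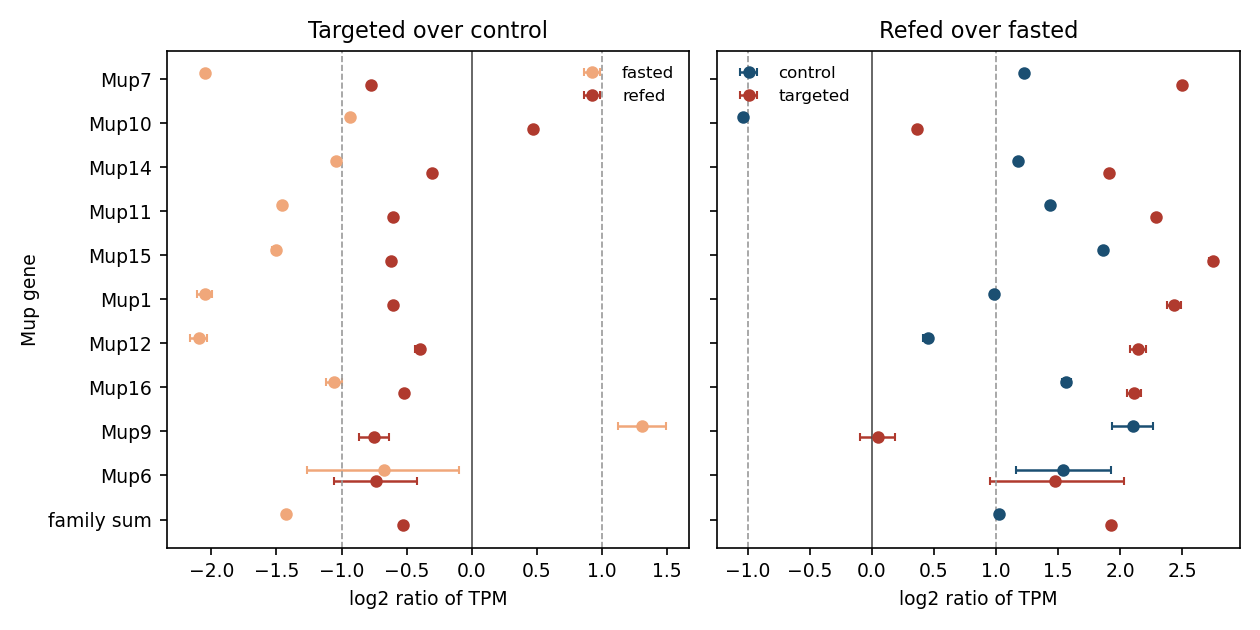
Log2 ratio of TPM (x axis) for each member and the family sum (y axis), targeted over control on the left and refed over fasted on the right. Points are ratios of 2 libraries, bars are 95% counting intervals, and dashed lines mark 2-fold. On the left most members lie left of 0 in both feeding states, with Mup9 right of 0 when fasted and Mup10 right of 0 when refed.

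Mup10 had the most unlike pattern among the abundant members. It stood at 13986 TPM in the control fasted, 7314 in the targeted fasted, 6789 in the control refed and 9382 in the targeted refed library. The control fasted library was its highest, and the control refed library, the highest for all 9 other members, was its lowest. Between the control libraries it was 2.06-fold lower after refeeding (2.04 to 2.08), and between the targeted libraries 1.28-fold higher. By FPKM the control value was 1.94-fold lower, just under 2-fold. Among the listed genes 46.2% were at least 2-fold lower in the control refed than in the control fasted library, so the direction of Mup10 is common in the table and is the exception within the family. Its coding region differs from that of Mup9 at 2 positions and 14.6% of its transcript windows are its own.

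Mup9 departed from the family in the other direction. It stood at 49.3 TPM in the control fasted, 122 in the targeted fasted, 211 in the control refed and 126 in the targeted refed library, and its lowest level was in the control fasted library. In the control pair it was 4.28-fold higher after refeeding (3.82 to 4.81), the highest ratio of any member there, and in the targeted pair 1.0-fold (0.938 to 1.13) by TPM. By FPKM that value was 1.24-fold, outside this interval, so the 2 scales differ on whether Mup9 was higher after refeeding there. The level of Mup9 is under 1% of the family sum in each library, and 14.9% of its transcript windows are its own. In the control fasted library its 358.79 reads stand beside 101534.27 of Mup10. How reads were divided between copies was not tested.

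The other listed genes were then ranked by how closely their pattern over the 4 libraries followed the family sum. The measure is the root mean square difference of log2(TPM + 1) after subtracting each gene's mean, over 223 genes with at least 10 TPM in the control fasted library and outside the 10 members. The nearest was Cyp7b1, an oxysterol hydroxylase with higher expression in male mouse liver, at a distance of 0.27 and levels of 112, 46.1, 184 and 110 TPM in the control fasted, targeted fasted, control refed and targeted refed libraries. Serpina7, the thyroxine-binding globulin, came next at 0.29, with 14.6, 4.44, 48.8 and 25.7 TPM. Nat8, an acetyltransferase gene, followed at 0.31, Mup8, a further member of the gene family, at 0.37, and Fkbp11, a peptidyl-prolyl isomerase of the endoplasmic reticulum, at 0.40. The median over the 223 genes was 1.16. On the same measure 8 of the members lay between 0.16 and 0.41 from the sum they are part of, and Mup10 and Mup9 both at 0.99.

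**Figure D5:**
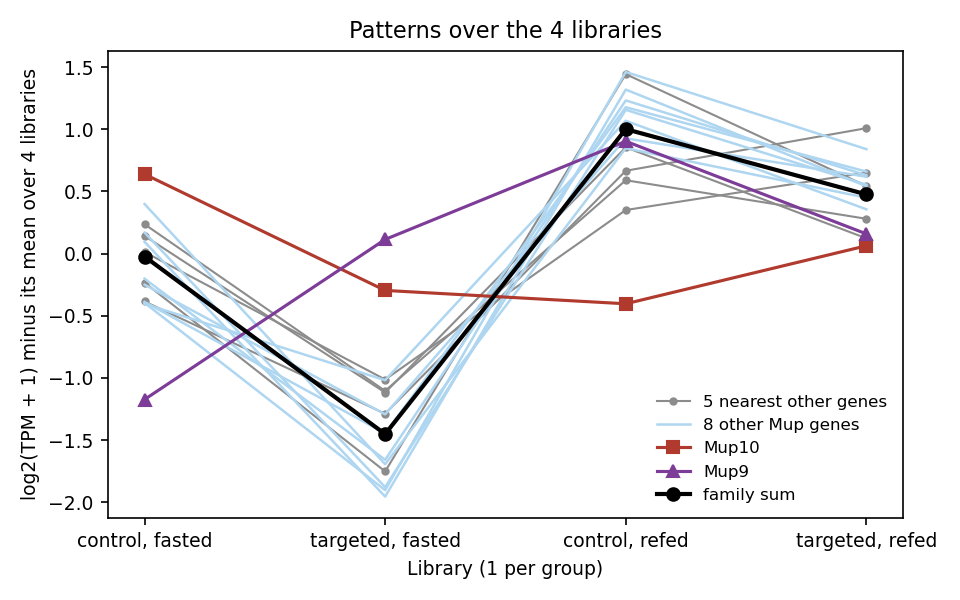
Log2(TPM + 1) minus its mean over the 4 libraries (y axis) for the family sum, the members and the 5 nearest other genes, by library (x axis, 1 per group). The family sum and 8 members have their lowest point in the targeted fasted and their highest in the control refed library, Mup10 has its highest in the control fasted library, and Mup9 its lowest there.

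Genes with known sex bias or a role in growth hormone signalling were examined as the setting of the family. Of 41 other genes on a list of male-biased liver genes, 8 are in the fasted table, 7 lower and 1 higher in the targeted library, where 69.7% of all listed genes are lower. That list includes Mup genes outside the members described here, and Mup8 is among the 7 lower. Moxd1, also among the 7, had only 0.03 TPM in the targeted against 0.47 TPM in the control fasted library. The level of Serpina1e was 3358, 501, 10275 and 7226 TPM in the control fasted, targeted fasted, control refed and targeted refed libraries, an order of libraries shared with Mup7. Selenbp2, a selenium-binding protein gene, stood at 71.6, 35.3, 643 and 477 TPM, and the steroid dehydrogenase gene Hsd3b5 at 25.4, 7.69, 215 and 165 TPM, in the same order again. In all, 4 of the 8 listed male-biased genes shared the order of Mup7, against 25 of all 722 listed genes, 8 of which are members. Cyp7b1, Mup8, Hsd3b2 and Moxd1 did not share it. Hsd3b2, a further steroid dehydrogenase gene, was the one listed higher, with 21.2 TPM in the targeted against 8.80 TPM in the control fasted library. Of 35 female-biased genes, 6 are listed in the fasted state, each of them higher, where 30.3% of listed genes are. The summed level of these 6 was 139 TPM in the targeted against 43.4 TPM in the control fasted library, and 32.7 against 20.9 TPM in the refed pair. Most of the refed difference was that of Gstt3, at 24.6 against 14.0 TPM, while Cyp17a1, a steroid hydroxylase gene, was lower, at 4.96 against 6.07 TPM. In the fasted pair Gstt3, a glutathione transferase gene, had 47.4 against 17.4 TPM, and the cytochrome P450 gene Cyp2b9 15.4 against 0.15 TPM. For the refed state the male-biased gene Moxd1 is listed lower and 3 female-biased genes are listed higher, where 222 of the 284 genes of that table are higher and 21.8% are lower. The level of Moxd1 was low here too, at 0.05 TPM in the targeted against 1.57 TPM in the control refed library. Of 31 genes of growth hormone signalling and liver transcription control, 2 are in the fasted table, the transcription factor gene Cebpb and the carrier gene Igfbp3, both lower in the targeted library as 69.7% of listed genes are, and 1 in the refed table, the transcription factor gene Onecut1, which was lower, where 21.8% of that table is. Of 26 genes of other secreted and hepatocyte proteins, 1 is in the fasted table, Serpina1e again, and 1 in the refed table, the apolipoprotein gene Apoa4, with 955 TPM in the targeted against 392 TPM in the control refed library. These lists were drawn up with earlier results of the same data known.

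Markers of other liver cell types differed between the same libraries. Of 61 genes marking endothelium, macrophages, lymphocytes, neutrophils, stellate cells, bile duct cells and red cells, 19 are listed in the fasted state, each with a lower targeted level, where 69.7% of all listed genes are lower. Their summed level was 255 TPM in the targeted against 536 TPM in the control fasted library, of which red cell genes made up 161 and 312 TPM. In the refed pair the same 19 genes summed to 346 TPM in the targeted against 243 TPM in the control library, red cell genes making up 217 and 158 TPM. This is the opposite direction to the Mup family and that of 75.5% of the listed genes. Of 10 hepatocyte markers, 0 are in either table, so the liver label was not checked by them. The part of cell composition in the Mup levels was not tested. In the libraries labelled as targeted, Cyb5a stood at 207 and 166 TPM, fasted and refed, against 1686 and 1274 TPM in the controls, and Cyb5b at 27.4 and 49.5 TPM against 72.4 and 174 TPM.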

How the data were processed

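Liver RNA from 4 mouse groups, 1 library each, was extracted using TRIzol, per the labels' protocols. The aligner, build and library kit were not given in the sources used here. The authors deposited TPM and FPKM with 2 decimals for every library, and a log2 ratio and p-value for pairs of libraries, per the file headers. The authors' p-values compare reads of 2 libraries and are not used as tests. Shorter second sheets of 14 and 33 genes hold 0 members and were not used.

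Read numbers were recovered as sets of numbers with 2 decimals that give both deposited log2 ratios of a gene. The multiple of a set was limited by the length that reads, FPKM and estimated depth imply. For Mup6, 122 multiples were possible, and the one closest to its own p-values was used. On simulated reads, 40 of 40 sets were recovered up to a common factor, so this did not check the choice of multiple. The simulated control numbers were all below that of Mup7. The library ratio was solved from the p-values of Mup9, and all 5 non-zero p-values of members then matched within 0.001. Those of Mup9 and Mup6 had served to set the ratio and the reads, so only the match of Mup12 is a separate check. For Mup14 the control fasted reads may be 54273.62 or 81410.43, and the lower was used. With reads, FPKM and depth, the lower number implies a length of 508 bases. The other members except Mup6 had 710 to 840 bases, so the higher number may be the nearer one. Targeted refed reads were estimated from FPKM. Total reads of the libraries compared differed by 1.01 to 1.02 times, and depth was estimated from genes with 1 GENCODE M21 transcript (19 to 68 genes per library), so it is approximate. Clopper-Pearson intervals of read ratios were moved to the TPM ratio. No pseudocount or filter was applied to the ratios. With 1 library per group no test was possible, and edgeR and DESeq2 were not used.

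Coding regions and promoters were aligned with Biopython 1.88. Named were all members, other listed Mup genes, the 5 genes nearest the family sum, and at most 6 listed genes per list, those with the highest TPM. Moxd1, the 1 male-biased gene of the refed table, was named in addition, although its TPM was low. The members and lists were chosen with earlier results of these data known. The alternatives were FPKM, a pseudocount of 1 TPM, the authors' log2 ratio, other sums over the family, and another pseudocount for the pattern. Samples were grouped by their titles. Calculations used Python 3.11.15, SciPy 1.17.1 and pandas 2.3.3.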

Additional observations from a re-analysis of the deposited data

Results flagged for a closer look

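The targeted over control ratio of 2 members had opposite signs in the fasted and refed pairs, and neither difference was tested, since each ratio rests on 1 pair of libraries. For Mup9 the log2 ratio was 1.3 fasted and -0.75 refed, a refed minus fasted difference of -2.05. For Mup10 it was -0.94 fasted and 0.47 refed, a difference of 1.40. Mup10 also had opposite signs between genotypes in the refed over fasted ratio, at -1.04 in the control and 0.36 in the targeted pair.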

How the results depend on the processing

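The log2 ratio of the family sum was -1.43, -0.53, 1.02 and 1.93 for targeted over control fasted, targeted over control refed, refed over fasted control and refed over fasted targeted, and kept its sign under every alternative run. In the same order it was -1.63, -0.55, 1.11 and 2.19 by FPKM, -1.26, -0.60, 1.33 and 2.13 as the median of single members, and -1.17, -0.37, 0.90 and 1.70 without Mup7. Of the alternatives added after seeing the data, it was -1.61, -0.61, 1.31 and 2.31 without Mup10 and -1.49, -0.59, 1.13 and 2.03 when scaled to the TPM outside the family. Adding Mup8 moved it by less than the counting interval. Asking for at least 1 TPM in every library removed no member, since the lowest level was 8.48 TPM, and so could not change it. The count of members at least 2-fold lower after refeeding in the control pair was 1 by TPM and 0 by FPKM, since Mup10 lies near 2-fold, and no other count moved by over 1.5 times. By FPKM and with a pseudocount of 0.1, 5 of the 5 nearest genes were shared. All 100 alternative values of single members kept their sign and moved by at most 0.35 in log2. No paired analysis was possible because each group has 1 library. Depth limits Mup6 and Mup9, and the division of reads between copies limits all members except Mup6.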

Other observations

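Mup8 is the one further gene of the family in the fasted table and was not among the 10 members. It stood at 49.6 TPM in the control fasted, 26.1 in the targeted fasted, 104 in the control refed and 132 in the targeted refed library. Its highest level was thus in the targeted refed library, unlike that of any member, and the read numbers behind it, 362.96 and 814.57 in the control fasted and control refed libraries, again have decimals. The targeted over control log2 ratio of Mup8 was -0.93 fasted and 0.35 refed, 2 signs that also occurred in Mup10. Mup8 was 2.09-fold higher after refeeding in the control pair (1.85 to 2.38) and 5.06-fold in the targeted pair (4.30 to 6.0).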
